A study of Mus musculus with 6 samples.

Results

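The microRNAs described here are the arms of the hairpins Mir28a, Mir151 and Mir708 together with Mir28c, 7 of the 1028 mature microRNAs counted in a cultured mouse epicardial cell line, called MCEC and MEC in the labels. They were taken by name, as every row called mmu-miR-28a, mmu-miR-28b, mmu-miR-28c, mmu-miR-151 or mmu-miR-708 with either arm or none, and no row was named mmu-miR-28b. The family itself was picked from the comparison of KO and EV read counts with those results known, so every KO and EV value below, with its adjusted p, describes the members and supports nothing beyond them. The 3 EV libraries came from cells that received an empty-vector lentivirus, and the 3 KO libraries from cells that received a lentivirus carrying an sgRNA for CRISPR/Cas9 knockout of Hdac3, whose product removes acetyl groups from histones as part of repressor complexes. All cells were of 1 line grown in high-glucose medium with fetal bovine serum. The labels give no clone, time after transduction or age, and leave unsaid if replicates were cultured separately. The p-values therefore measure only how these libraries vary, which may be technical.

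A microRNA hairpin is cut by Dicer into a short duplex, and either strand, the 5p or the 3p arm, can be loaded into an Argonaute protein. Bases 2 to 8 of the loaded strand, the seed, pair with target messenger RNAs, so that microRNAs with a common seed can repress overlapping sets of targets. Mir28a, Mir151 and Mir708 are known as relatives that lie in introns of protein-coding genes. Their hosts are Lpp, which encodes an adaptor protein of focal adhesions, Ptk2, which encodes focal adhesion kinase, and Tenm4, which encodes the transmembrane protein teneurin-4.

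The mature sequences, for the members where one was held, show which had the same seed. RefSeq (GRCm38.p6) entries matched 4 of the 7 rows, and not the miR-151 arms or miR-28c. They are written 5′ to 3′ with the seed in capitals.
mmu-miR-28a-5p: aAGGAGCUcacagucuauugag
mmu-miR-708-5p: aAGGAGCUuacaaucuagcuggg
mmu-miR-28a-3p: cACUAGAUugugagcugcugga
mmu-miR-708-3p: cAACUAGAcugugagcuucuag
The 5p arms had the same seed, AGGAGCU, and were identical at 16 of the 22 positions compared from the 5′ end. Counted from 1 at the 5′ end of miR-28a-5p, the substitutions were C9U, G13A, U18G, U19C, G20U and A21G, all outside the seed. The 3p arms were as closely related, with 17 of 21 bases the same, but only when miR-708-3p was shifted by 1 base, so their seeds, ACUAGAU and AACUAGA, differed. Of the 849 rows of the table with a RefSeq sequence, only miR-28a-5p and miR-708-5p had the seed AGGAGCU, and no other row had either 3p seed. The name seed family was thus borne out by these sequences for the 5p arms of Mir28a and Mir708 and not for the 3p arms.

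The hairpins lie on 3 chromosomes, each in an intron on the strand of its host (GENCODE M21, GRCm38). Mir28a (chr16:24827855-24827940, plus strand) lies in intron 8 of 12 of the principal Lpp transcript, 434.3 kb from the start of the gene. Its arms map to chr16:24827868-24827889 (miR-28a-5p) and chr16:24827908-24827929 (miR-28a-3p). Mir151 (chr15:73254815-73254882, minus strand) lies in intron 22 of 31 of Ptk2, 168.4 kb from its start. Mir708 (chr7:96249424-96249532, plus strand) lies in intron 1 of 32 of Tenm4, 78.2 kb from the start, with miR-708-5p at chr7:96249450-96249472 and miR-708-3p at chr7:96249496-96249517. No exon of a coding transcript that spanned a hairpin overlapped it. Mir28c (chr15:53614205-53614279, minus strand) lies within Samd12. Host messenger RNAs were not analysed here.

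The libraries held 11824881 to 13412774 counts, of which the family took 0.0909% to 0.132% and miR-21a-5p 63.0% to 70.1%. Levels are in CPM, reads scaled by the library total and a TMM factor (which takes most microRNAs as unchanged), and 1 read was worth 0.0637 to 0.0892 CPM. EV 3 and KO 2 stood apart in markers of other cell types, with miR-451a of red blood cells at 54.7 and 62.7 CPM against 0.243 to 2.45 in the other 4. The 3 red blood cell markers summed to 8.73 to 68.0 CPM in EV and 5.92 to 77.8 in KO, with miR-144-3p at 0 in 5 of 6 libraries. The 2 neural markers summed to 11.3 to 52.1 CPM in EV and 15.2 to 57.8 in KO, and were also highest in EV 3 and KO 2. They set these libraries less apart, as miR-9-5p in EV 2 (32.6 CPM) lay between EV 1 (11.3) and EV 3 (51.4). White blood cell (3 markers), liver (1) and muscle markers (4 of 5 with a row) summed to at most 0.735, 3.24 and 27.2 CPM in any library, and the 2 endothelial ones to 34.7 to 42.1. The 5 mesenchymal markers summed to 589456 to 837452 CPM, most of it from miR-21a-5p alone (513964 to 763066 CPM). These microRNAs do not mark the epicardium itself, so the labelled cell type could not be checked, nor could the loss of Hdac3.

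miR-28a-3p rose and miR-708-5p fell in KO, while the miR-151 arms, miR-28a-5p and miR-708-3p were not called. Of the 7 members, 6 passed the filter on low counts (edgeR's filterByExpr). Of these 6, 1 rose, 1 fell and 4 were not called by edgeR (quasi-likelihood F test, two-sided, Benjamini-Hochberg adjusted p under 0.05 over 460 microRNAs), where 7.61% of all tested microRNAs were called. The 3 KO values lay all above or all below the 3 EV values for 2 of the 6, against 29.1% of all tested microRNAs. The median log2 change was 0.07 in the family and -0.01 over all tested microRNAs.

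**Figure D1:**
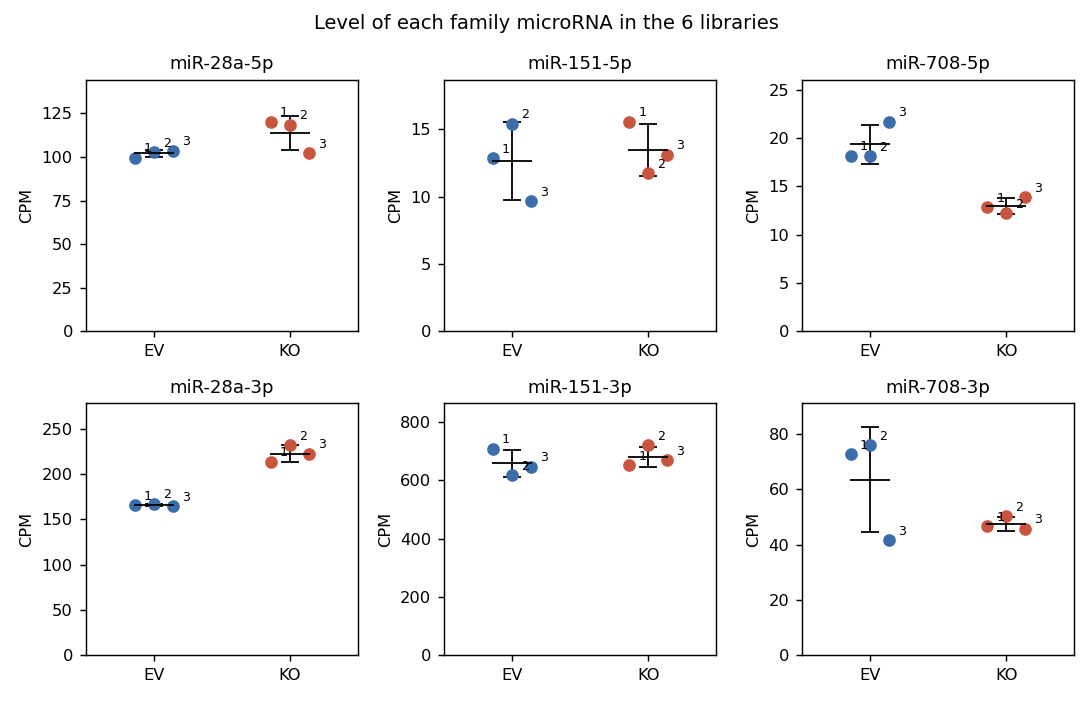
Level of each tested family microRNA (CPM, linear axis from 0) in the 3 EV (blue) and 3 KO (red) libraries, numbered by replicate, with bars for the mean and SD. miR-28a-3p is higher and miR-708-5p lower in every KO library than in any EV library, and miR-708-3p of EV 3 sits below all 3 KO values.

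Among the 5p arms, which carry the common seed where it could be read, miR-708-5p was lower in KO. This microRNA, known to be induced with its host gene under endoplasmic reticulum stress, had 18.2, 18.1 and 21.7 CPM in the EV libraries in order of replicate (285, 222 and 243 reads). In the KO libraries it had 12.8, 12.2 and 13.8 CPM (158, 153 and 169 reads). All KO libraries were below all EV libraries, and the EV spread came from EV 3, the highest. The mean fell from 19.3 ± 2.05 to 12.95 ± 0.827 CPM (SD, n = 3 each), a log2 change of -0.58 (SE 0.14, 95% interval -0.89 to -0.26, edgeR adjusted p = 0.0367). Counting error alone gives coefficients of variation of 6.32% in EV and 7.91% in KO at these read numbers, against 10.6% and 6.39% observed. The fall ranked 434 of 460 when log2 changes were ordered from highest to lowest. It was not called when any 1 library was left out, with log2 changes of -0.64 to -0.49 and edgeR adjusted p of 0.0585 without EV 1, 0.0726 without EV 2, 0.0790 without EV 3, 0.142 without KO 1, 0.121 without KO 2 and 0.0901 without KO 3. Scaled by library size alone it was -0.72 (SE 0.17, edgeR adjusted p = 0.0639).

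miR-28a-5p, with the same seed, was not lower in KO. It had 99.6, 102.9 and 104 CPM in the EV libraries (1564, 1261 and 1161 reads). The KO libraries had 120.3, 118 and 102 CPM (1484, 1485 and 1249 reads). The groups overlapped because KO 3 lay among the EV values. The log2 change was 0.16 (SE 0.09, 95% interval -0.05 to 0.36, edgeR adjusted p = 0.341).

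miR-151-5p, from a hairpin known for its link to cell migration in liver cancer, was the least abundant tested member over the 6 libraries, although in KO its mean was above that of miR-708-5p. Its level was 12.9, 15.4 and 9.64 CPM in EV (202, 189 and 108 reads) and 15.6, 11.7 and 13.1 CPM in KO (192, 147 and 160 reads). The groups overlapped, with EV 3 below every KO library and KO 1 just above every EV library. The log2 change of 0.09 (SE 0.19) had a 95% interval of -0.35 to 0.53, which includes changes as large as that of miR-28a-3p. miR-28c had 1 read in EV 1, 1 in KO 3 and none elsewhere. It did not pass the filter, and a count of 0 allows up to 0.239 to 0.268 CPM in the 4 libraries without a read (3 reads each, for counting error only).

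**Figure D2:**
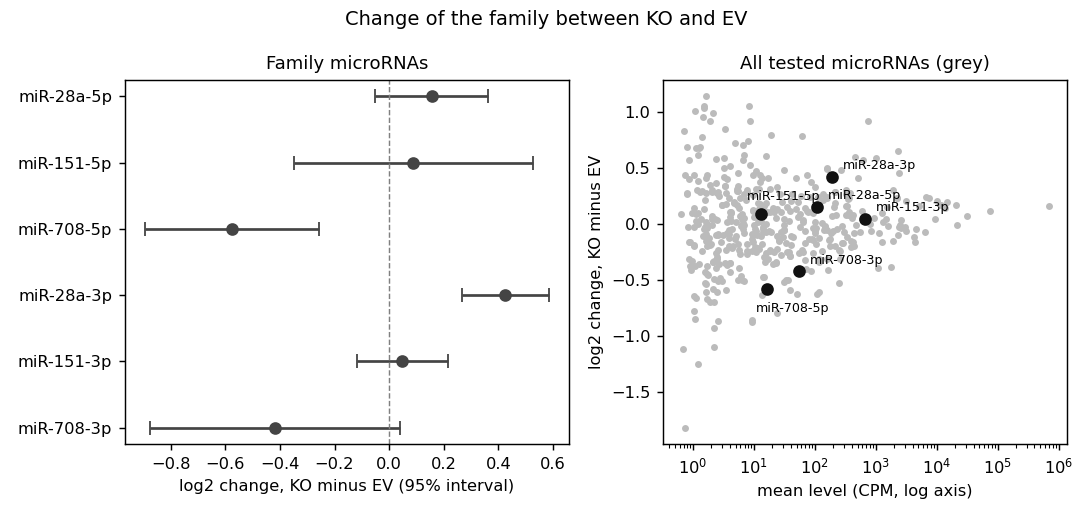
Left, log2 change from EV to KO of the 6 tested family microRNAs with 95% intervals. Right, the same changes (black) against mean level (CPM, log axis) among all 460 tested microRNAs (grey). The intervals of miR-28a-3p (0.27 to 0.59) and miR-708-5p (-0.89 to -0.26) lie on opposite sides of 0.

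Among the 3p arms, miR-28a-3p was higher in KO. The EV libraries had 166, 167 and 165 CPM (2599, 2047 and 1845 reads), and the KO libraries had 213.6, 232 and 222.7 CPM (2635, 2907 and 2719 reads). On this scale the EV libraries were nearly equal, and all KO libraries were higher. The TMM factor was 1.23 in EV 1 and 0.919 to 1.04 in the others. By library total alone EV 1 (2599 of 12806873 counts) stood above KO 1 (2635 of 13412774 counts), so the groups overlapped. The mean rose 1.34-fold, from 166 ± 1.24 CPM in EV to 222.7 ± 9.11 in KO (SD, n = 3 in each group). On the log2 scale the change was 0.43 (SE 0.07, 95% interval 0.27 to 0.59, with an edgeR adjusted p of 0.00777), the 50th highest of 460. The EV coefficient of variation of the TMM-scaled values, 0.746%, was below the 2.15% that counting error alone gives. The rise was called without any 1 library, with log2 changes of 0.40 to 0.46, but often close to the threshold. The edgeR adjusted p was 0.0170 without EV 1, 0.0451 without EV 2 and 0.00873 without EV 3. It was 0.0421 without KO 1, 0.0498 without KO 2 and 0.0395 without KO 3. Scaling by library size alone gave all microRNAs a median log2 change of -0.16 and miR-28a-3p one of 0.27 (SE 0.13, edgeR adjusted p = 0.278), which was not called.

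miR-708-3p, from the hairpin of miR-708-5p, was split by 1 EV library. Its level was 72.8 and 76.0 CPM in EV 1 and EV 2 (1143 and 931 reads), but 41.6 CPM in EV 3 (466 reads). The KO libraries had 46.6, 50.3 and 45.7 CPM (575, 631 and 558 reads). EV 3 therefore lay below every KO library, and EV 1 and EV 2 above every one. The log2 change was -0.42 (SE 0.20, 95% interval -0.88 to 0.04) and was not called (edgeR adjusted p = 0.254). Without EV 3 it was -0.65 (SE 0.11) and was called (edgeR adjusted p = 0.00557). EV 3 was 1 of the 2 libraries with the highest miR-451a and miR-9-5p, and in KO 2, the other, miR-708-3p was the highest of the KO values. The part of those markers in the miR-708-3p value was not tested.

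miR-151-3p was by far the most abundant member and showed no called difference. Its level was 709, 618 and 647 CPM in EV (11130, 7577 and 7256 reads) and 652, 721 and 670.4 CPM in KO (8041, 9034 and 8187 reads). EV 2 and EV 3 lay below every KO library and EV 1 above all but KO 2, so the groups overlapped. The log2 change of 0.05 (SE 0.07) had a 95% interval of -0.12 to 0.22. That interval lies below the changes of miR-28a-3p and above that of miR-708-5p. Scaled by library size alone, where the median of all microRNAs was -0.16, the log2 changes were -0.12 for miR-151-3p and -0.09 for miR-151-5p.

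Without EV 3 and KO 2 together, miR-28a-3p stood at 0.40 (SE 0.11, edgeR adjusted p = 0.0141) and miR-708-3p at -0.68 (SE 0.13, edgeR adjusted p = 2.71e-04), both called, and miR-708-5p at -0.44 (SE 0.18, edgeR adjusted p = 0.0879), not called. The authors' deposited table, from the same 6 libraries, lists 78 microRNAs where 1028 were counted, and 2 of the 7 members are among them. By the authors' own test it gives log2 changes of 0.41 for miR-28a-3p (adjusted p = 1.20e-12) and -0.58 for miR-708-5p (adjusted p = 6.96e-05). Coming from the same libraries, these values are no separate evidence.

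**Figure D3:**
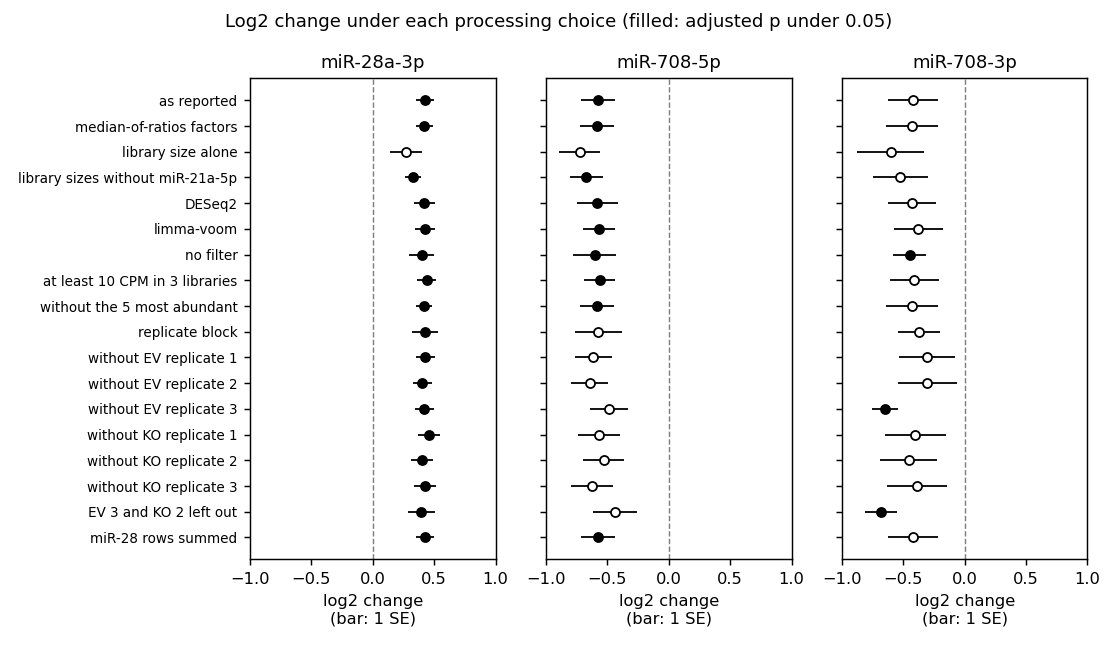
Log2 change from EV to KO of miR-28a-3p, miR-708-5p and miR-708-3p under each processing choice, with bars of 1 SE. Filled points had an adjusted p under 0.05. miR-28a-3p is open only with library size alone, miR-708-5p is open in every fit that leaves out a library, and miR-708-3p is filled only without the filter and in the fits that leave out EV 3.

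The order of the levels in EV, from miR-151-3p through miR-28a-3p (166 ± 1.24), miR-28a-5p (102 ± 2.13), miR-708-3p (63.5 ± 19.0) and miR-708-5p (19.3 ± 2.05) to miR-151-5p (12.6 ± 2.90 CPM, SD, n = 3), had no overlap between neighbours. In KO, miR-708-5p (12.95 ± 0.827) and miR-151-5p (13.5 ± 1.95 CPM) overlapped, and the other neighbours did not. Adaptor ligation favours some sequences, so such differences between microRNAs are those of the libraries and may not be those of the cells. Counts of mature microRNAs contain no length term.

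In all 3 hairpins the 3p arm gave more reads, as it did in 43.6% of the hairpins with both arms tested. Mir151 gave 55.1, 40.1 and 67.2 reads of the 3p arm per read of the 5p arm in EV and 41.9, 61.5 and 51.2 in KO. Mir28a was close to balanced, at 1.66, 1.62 and 1.59 in EV and 1.78, 1.96 and 2.18 in KO, every KO library above every EV library. Mir708 stood at 4.01, 4.19 and 1.92 in EV and 3.64, 4.12 and 3.30 in KO, with EV 3 lowest. The low miR-708-3p of EV 3 came with the highest miR-708-5p value of any library. The log2 change of the 3p arm exceeded that of the 5p arm by 0.27 in Mir28a and 0.19 in Mir708 and was 0.05 smaller in Mir151. None of these was called (limma diffSplice over 266 arms, adjusted p = 0.954, 0.998 and 0.998), where 0% of all arms were called, and 12 had an unadjusted p under 0.05.

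The ratio of 2 microRNAs within a library does not depend on the scaling. For 3 of the 4 pairs of a Mir28a arm with a Mir708 arm it did not overlap between KO and EV. Of the 15 pairs of tested members, 8 had log2 ratios that did not overlap between KO and EV, against 26.9% of all 105570 pairs of tested microRNAs. The pairs share members and are not independent. Most of the 8 hold miR-28a-3p or miR-708-5p, the 2 members whose own CPM values did not overlap between groups. As the family was picked with these values known, the excess over all pairs supports nothing. The exact permutation test of 3 against 3 libraries cannot give a two-sided p below 0.10, which these 8 pairs reached, at 0.188 adjusted over the 15. The widest gap was between miR-28a-3p and miR-708-5p. Their log2 ratio was 3.10 ± 0.157 in EV and 4.10 ± 0.126 in KO (SD, n = 3 each), a difference of 1.00 (SE 0.12). With 1 library left out it ran from 0.91 to 1.05. The miR-28a-3p and miR-708-3p ratio differed by 0.79 (SE 0.28), with EV 3, at 1.98, much nearer to the KO range of 2.20 to 2.28 than the other EV libraries were. The fourth such pair, miR-28a-5p and miR-708-3p, overlapped between groups, with a difference of 0.52 (SE 0.30). The ratio of the Mir28a arms differed by 0.27 (SE 0.09) and that of the Mir708 arms by 0.21 (SE 0.38), where the groups overlapped.

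**Figure D4:**
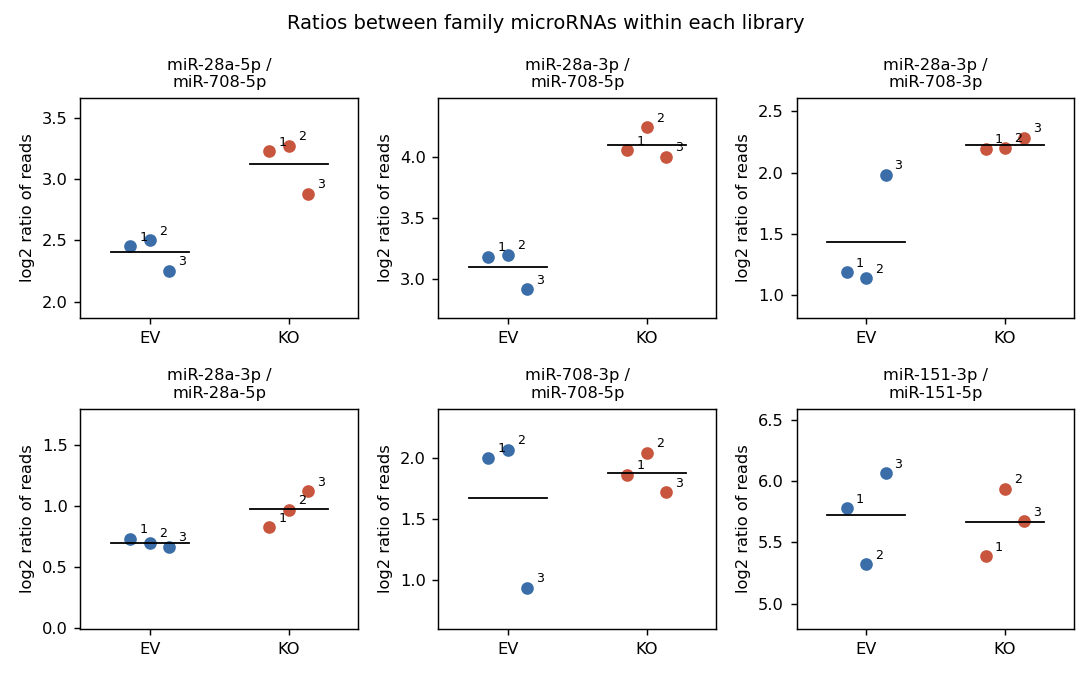
Log2 ratio of reads (0.5 added to each count) between pairs of family microRNAs within each library, EV blue and KO red, numbered by replicate, with group means as lines; every panel spans the same range. The ratios of miR-28a arms to miR-708 arms are higher in all KO libraries for the 3 pairs in the upper row, and the Mir708 and Mir151 arm ratios overlap.

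The seed mates moved apart. Within its seed group, miR-28a-5p differed from miR-708-5p by 0.72 in log2 change (limma diffSplice on 115 microRNAs in 45 seed groups, adjusted p = 0.00265), where 5.22% of the 115 were called. The 2 rows of this group are mirror images of 1 difference. It was called in each of the 9 other fits run, with values of 0.65 to 0.84 and adjusted p of 0.001995 to 0.0429. Those fits reuse the same libraries. As the family was picked with these values known, the calls describe this pair and support nothing beyond it. In the edgeR fit the 2 log2 changes were 0.16 for miR-28a-5p, not called, and -0.58 for miR-708-5p, called.

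Seeds could be read for 849 rows and not for the other 179, the miR-151 arms and miR-28c among them. Among the rows read, miR-708-5p made up a smaller part of the reads with the seed AGGAGCU in KO. Its share was 15.4% (95% Wilson interval 13.8 to 17.1), 14.97% (13.2 to 16.9) and 17.3% (15.4 to 19.4) in EV 1, EV 2 and EV 3. The KO shares were 9.62% (8.29 to 11.1), 9.34% (8.02 to 10.8) and 11.9% (10.3 to 13.7), all below the EV shares, with the interval of KO 3 overlapping those of EV 2 only. Such intervals cover counting error alone, since PCR copies were counted as reads. The group means were 15.9% ± 1.24 and 10.3% ± 1.41 (SD, n = 3 each). The summed level of these 2 microRNAs was 121 ± 3.76 CPM in EV and 127 ± 9.19 CPM in KO, with overlapping groups. KO 3 was the lowest of all 6 libraries in this sum, and the KO SD was larger than the difference between the means, while the EV SD was smaller.

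**Figure D5:**
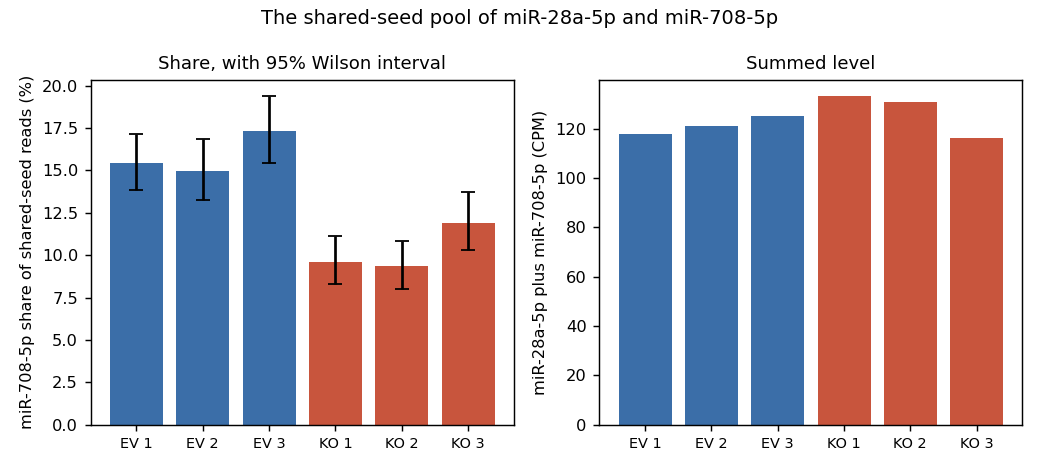
Left, share of miR-708-5p among reads of miR-28a-5p and miR-708-5p, per library, with 95% Wilson intervals. These were the 2 microRNAs with the seed AGGAGCU among those with a RefSeq sequence. Right, the summed level of both (CPM). The share is 14.97% to 17.3% in EV and 9.34% to 11.9% in KO, and the summed level overlaps between groups.

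Each member resembled different microRNAs in its profile over the 6 libraries. The 3 microRNAs with the highest Pearson correlation of log2 CPM among 243 candidates of at least 10 CPM were miR-34a-5p (0.979), miR-503-5p (0.978) and miR-24-2-5p (0.966) for miR-28a-3p, and all had KO values above every EV value. For miR-708-5p they were miR-455-5p (0.972), miR-369-5p (0.966) and miR-679-5p (0.964), all with KO values below every EV value. For miR-708-3p they were miR-6539 (0.969), miR-540-3p (0.965) and miR-434-3p (0.929), and none separated the groups. miR-28a-5p was nearest to miR-1843a-5p (0.920), miR-125b-5p (0.897) and miR-27b-5p (0.894), of which the first pair had KO values above every EV value although miR-28a-5p did not. The nearest to miR-151-3p were miR-125a-3p (0.912), miR-31-5p (0.869) and miR-674-3p (0.833), and to miR-151-5p miR-22-5p (0.935), miR-574-3p (0.885) and miR-30f (0.826). No name occurred for more than 1 member, the arms of 1 hairpin included. Family members were not among the candidates. The arms of Mir28a, Mir708 and Mir151 correlated with each other at 0.685, 0.259 and -0.319. These correlations describe 6 points that share libraries and scaling factors. Both miR-28a-3p and miR-708-5p separated the groups themselves, so neighbours that did so too add nothing to their change.

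Other microRNAs known from introns of protein-coding genes were called about as often as all tested microRNAs. A list of them gave 49 rows, of which 30 were tested, and all 28 of these with a RefSeq position lay within a coding gene on the same strand. The median log2 change of the list was -0.09 (SD of the changes 0.30), against 0.07 in the family (SD 0.38), a gap smaller than either SD. Of the 30 tested, 0 rose, 2 fell and 28 were not called (edgeR), near the 7.61% called over all tested microRNAs. The 2 that fell were miR-455-5p of Col27a1, from 130 ± 16.2 CPM in EV to 83.9 ± 1.33 in KO (SD, n = 3 in each group; log2 change -0.63, SE 0.10, with an edgeR adjusted p of 0.00777), and miR-340-5p of Rnf130, from 46.1 ± 4.43 CPM in EV to 30.6 ± 1.79 in KO (-0.59, SE 0.13, with an edgeR adjusted p of 0.0212). The most abundant, miR-26a-5p of the Ctdsp genes, miR-140-3p of Wwp2 and miR-101b-3p of Rcl1, had log2 changes of 0.24 (SE 0.09), -0.01 (SE 0.09) and 0.02 (SE 0.07), and none was called. The log2 change of miR-708-5p, -0.58, was close to those of miR-340-5p and miR-455-5p. The highest log2 change of the list, named here after its values were seen, was 0.44 (SE 0.39) for miR-26b-3p, at a mean of 1.03 CPM, and was not called.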

How the data were processed

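Small RNA of 6 libraries was prepared by adaptor ligation and size selection, per the labels' protocols, with no molecular identifiers mentioned. The submitters' processing notes name Bowtie, DESeq 1.8.3 and the build mm10, while the rule for reads that matched several microRNAs was not given in the sources used here. Raw read counts per mature microRNA are in the deposited table, and the authors also deposited them as TPM (scaled to the library total, without a length term), which was not tested. The authors' deposited list of differences gives mean normalized signal per group, log2 fold changes and adjusted p-values, and holds only microRNAs under their threshold.

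Counts were tested with edgeR 4.0.16 (R 4.3.3) on all 6 libraries with TMM factors and filterByExpr (minimum count 10, minimum total 15), adjusted over 460 microRNAs with a threshold of 0.05. Intervals are 95%. Ratios within a library had 0.5 reads added to each count. limma 3.58.1 diffSplice on voom values compared each microRNA with the rest of its hairpin or seed group. The scripts were tested on simulated data. Alternatives were another scaling, DESeq2 1.42.0, limma-voom, other filters, a replicate block, summed miR-28 rows and leaving out libraries. Members and lists were chosen with earlier results of these data known. Named microRNAs are the members, the 3 most like each tested member, the called and the 3 most abundant members of the intronic list, and markers of other cell types.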

Additional observations from a re-analysis of the deposited data

How the results depend on the processing

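The number of microRNAs called over the whole table (35) was 5 with library size alone, 56 without the filter on low counts, 88 without EV 3 and KO 2, and 15 to 59 when 1 library was left out. miR-28a-3p was called under 16 of 17 alternatives, all but library size alone, with adjusted p of 3.97e-05 to 0.278. miR-708-5p was called under 8 of 17 and kept its sign in all, and miR-28a-5p was called in none (0.00030 to 0.23). Among the 17, summing the miR-28 rows could change little, since miR-28c had 1 read in EV 1, 1 in KO 3 and none elsewhere. miR-708-3p was called under 3 of 17, without the filter (-0.45, edgeR adjusted p = 0.0183), without EV 3 and without EV 3 and KO 2. The sign of the log2 change turned for miR-151-3p with library size alone (-0.115), sizes without miR-21a-5p (-0.0514) and without EV 3 and KO 2 (-0.00075), and it ran from -0.0236 to 0.109 when 1 library was left out. For miR-151-5p it turned with library size alone (-0.0861) and sizes without miR-21a-5p (-0.0130), and ran from -0.0712 to 0.223 when 1 library was left out. These 2 scalings moved the median of all microRNAs to -0.16 and -0.11, below each of these values, so both arms stayed above the median. For the sign changes without libraries the cause was not tested.

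When 1 library was left out, the difference of the 3p from the 5p arm ran from -0.240 to 0.103 for Mir151 (-0.103 to 0.240 for 5p from 3p) and from -0.158 to 0.380 for Mir708 (-0.380 to 0.158 for 5p from 3p). Over all hairpins 0 to 2 arms were then called, and the 2, both arms of 1 hairpin, came without EV 3. The non-overlapping pairs of members numbered 8 to 11 over 7 alternatives, with 11 without EV 3. The deviations of same-numbered EV and KO libraries correlated at 0.30, -0.04 and -0.22, and those of differently numbered ones at up to 0.43. These values show no pairing by number, but so few libraries cannot exclude one. The replicate block gave 34 calls, with miR-708-5p at -0.57 (SE 0.19, edgeR adjusted p = 0.0645). At 108 to 202 reads per library, counting error alone gives miR-151-5p a coefficient of variation of 7.75% in each group, below the observed 22.9% in EV and 14.5% in KO.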
